A study of Homo sapiens with 22 samples.

Results

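Integrins are the cell surface receptors through which cells hold on to the extracellular matrix and to one another. The 10 integrin genes described here, ITGB1, ITGB3, ITGB5, ITGAV, ITGA5, ITGA4, ITGA1, ITGA2, ITGA3 and ITGA6, were taken as a fixed list of 10 of the 19974 protein-coding genes of the RefSeq annotation of GRCh38.p14. For each gene the deposited peaks over it or within 1 kb of it were collected from 18 peak lists. H3K27ac and HOXD13 peaks up to 100 kb away were collected as well.

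Each integrin is a pair of one alpha and one beta chain. The beta chain links to talin, kindlin and the actin cytoskeleton inside the cell, and the alpha chain largely sets the ligand: fibronectin and other RGD proteins, collagens, laminins, or VCAM1 on neighbouring cells. ITGB1 is the shared partner of most of the alpha chains listed here, and ITGB3 and ITGB5 pair with ITGAV. In Ewing sarcoma, a tumour of bone and soft tissue that a fusion of EWSR1 with an ETS gene drives, adhesion genes belong to the mesenchymal programme that the fusion protein EWS-FLI1 is known to hold down. HOXD13 is a posterior homeobox transcription factor.

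The assay was CUT&RUN on A673 and CHLA10, which are both established Ewing sarcoma cell lines. In CUT&RUN an antibody directs a nuclease to chromatin and the released DNA is sequenced, so a peak marks a stretch where the antibody's target was found. The study's title names EWS-FLI1, HOXD13 and tumour cell plasticity as its subject. A673 carrying a construct labelled shNS gave 2 libraries each for H3K4me3, a mark of promoters, H3K27ac, a mark of active promoters and enhancers, H3K4me1, a mark of enhancers, and H3K27me3, the Polycomb mark of silenced genes. CHLA10 with the same shNS label gave 2 libraries for each of these marks. HOXD13 was profiled in 1 A673 library and 1 CHLA10 library with no shNS in the label. Antibodies were used at 1:20 for HOXD13, at 1:50 for H3K27ac and at 1:100 for the other marks. The lines were grown in different media, RPMI for A673 and IMDM with insulin, transferrin and selenium for CHLA10, so the line and its medium cannot be told apart. The 4 IgG libraries were not analysed here.

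The lists hold peaks and no read counts, so the sequencing depth is unknown. For H3K4me3 there were 17909 and 18497 A673 peaks and 21384 and 21164 CHLA10 peaks. H3K4me1 lists covered 74.5 and 51.6 Mb in A673 and 9.63 and 11.3 Mb in CHLA10. Of the peaks in the shorter list of a pair, 90.7% recurred in the other replicate for A673 H3K4me3 and 83.8% for CHLA10 H3K4me3, while 23.4% recurred for A673 H3K27ac and 71.9% for CHLA10 H3K27ac. For H3K4me1 64.8% recurred in A673 and 25.3% in CHLA10. For H3K27me3 80.7% recurred in A673 and 69.9% in CHLA10. For HOXD13 there were 7160 A673 peaks and 2099 CHLA10 peaks. All 9 genes of an Ewing sarcoma marker list, among them CD99 and NR0B1, had start H3K4me3 in both libraries of both lines. With start H3K27ac required as well, 0 of these 9 qualified in A673 and 2, STEAP1 and JAK1, in CHLA10. Of 12 markers of blood, epithelium, endothelium and muscle, H3K4me3 lay at MYOD1 alone in A673 and at EPCAM alone in CHLA10. MYOD1 also had H3K27me3 in both lines. Of the 9 Ewing sarcoma markers, NKX2-2 alone had H3K27me3, in CHLA10.

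A gene was called in A673 only, or in CHLA10 only, when the window held a peak in each of that line's replicates and in none of the other line's. The start window ran 1 kb to each side of every listed transcription start, and the gene window covered the gene and 1 kb on each side. The beta chain genes lie at chr10:32900318-32958230 (ITGB1), chr17:47253827-47313743 (ITGB3) and chr3:124761948-124901418 (ITGB5). The RGD-binding alpha chain genes lie at chr2:186590056-186680901 (ITGAV) and chr12:54395261-54419266 (ITGA5), and ITGA4 at chr2:181457205-181538940. The collagen receptor genes lie at chr5:52787916-52959209 (ITGA1) and chr5:52989352-53094779 (ITGA2), and the laminin receptor genes at chr17:50056110-50090481 (ITGA3) and chr2:172427336-172506459 (ITGA6). Exon positions were not used here, so places inside a gene are given by distance alone. No start was listed for ITGB3 and ITGA3, so both ends of these genes were used and their distances are given from the end with the lower coordinate. Since the smallest two-sided p that an exact permutation of 2 libraries against 2 allows is 0.33, members were counted without a test, and each count stands beside the share of all protein-coding genes called by the same rule. These shares were not matched for gene length, which bears on counts over the gene window and within 100 kb. The −log10 q and rank given for a peak are the authors' values and describe it within its own list.

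The sequences of 7 promoters follow because results for the histone marks below refer to their starts. For H3K4me3 these are the start with the widest peak (ITGB1) and the outer and innermost of 3 ITGB5 starts, whose peaks were unequal. For H3K27ac they are the start acetylated in CHLA10 (ITGAV) and the start with the most distal regions around it (ITGA5). For H3K27me3 they are the pair of starts that lay under it in A673 (ITGA6). All 7 are RefSeq sequences of GRCh38.p14, 250 bases before to 50 after each start, written 5′ to 3′ on the gene's strand. Capitals mark matches, on either strand, to 5 letter strings, and adjoining matches run together. GGGCGG is the GC box that binds SP factors. CCAAT is the box known to bind the NF-Y complex. The string TGANTCA is known as the AP-1 element of FOS and JUN proteins. A pair of ETS cores, the repeat preferred by EWS-FLI1, was searched as GGAAGGAA. The core of posterior HOX sites was searched as TTTAT.
ITGB1, chr10:32958181-32958480, minus strand: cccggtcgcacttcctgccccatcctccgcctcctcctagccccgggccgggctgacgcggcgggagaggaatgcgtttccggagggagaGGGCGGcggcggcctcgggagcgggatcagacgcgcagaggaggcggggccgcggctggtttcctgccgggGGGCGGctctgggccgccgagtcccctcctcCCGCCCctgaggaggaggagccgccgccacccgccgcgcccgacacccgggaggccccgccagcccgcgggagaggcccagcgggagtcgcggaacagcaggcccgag
ITGB5 outer start, chr3:124901369-124901668, minus strand: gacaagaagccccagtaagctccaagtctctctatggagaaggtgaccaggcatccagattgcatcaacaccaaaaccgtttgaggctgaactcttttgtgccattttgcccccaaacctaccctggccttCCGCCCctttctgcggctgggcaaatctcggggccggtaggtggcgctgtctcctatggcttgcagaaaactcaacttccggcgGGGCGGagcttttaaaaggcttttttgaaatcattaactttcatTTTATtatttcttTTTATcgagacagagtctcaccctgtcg
ITGB5 innermost start, chr3:124887316-124887615, minus strand: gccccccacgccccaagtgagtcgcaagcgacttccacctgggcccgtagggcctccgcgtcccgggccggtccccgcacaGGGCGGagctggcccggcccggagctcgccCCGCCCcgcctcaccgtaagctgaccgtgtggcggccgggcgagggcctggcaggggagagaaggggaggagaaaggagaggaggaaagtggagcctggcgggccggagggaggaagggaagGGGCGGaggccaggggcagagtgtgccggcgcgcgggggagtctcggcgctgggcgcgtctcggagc
ITGAV, chr2:186589806-186590105, plus strand: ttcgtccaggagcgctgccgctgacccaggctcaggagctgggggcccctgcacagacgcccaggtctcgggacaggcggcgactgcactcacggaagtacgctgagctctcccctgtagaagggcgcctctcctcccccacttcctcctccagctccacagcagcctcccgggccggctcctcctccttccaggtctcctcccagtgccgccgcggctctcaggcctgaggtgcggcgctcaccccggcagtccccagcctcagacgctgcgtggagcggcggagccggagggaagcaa
ITGA5, chr12:54419217-54419516, minus strand: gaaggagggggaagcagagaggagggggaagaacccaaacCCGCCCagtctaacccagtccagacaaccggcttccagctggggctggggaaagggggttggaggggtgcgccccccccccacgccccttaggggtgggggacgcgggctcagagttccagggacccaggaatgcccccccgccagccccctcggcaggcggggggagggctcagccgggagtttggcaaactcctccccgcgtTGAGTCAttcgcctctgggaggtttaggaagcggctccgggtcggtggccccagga
ITGA6 first start, chr2:172427086-172427385, plus strand: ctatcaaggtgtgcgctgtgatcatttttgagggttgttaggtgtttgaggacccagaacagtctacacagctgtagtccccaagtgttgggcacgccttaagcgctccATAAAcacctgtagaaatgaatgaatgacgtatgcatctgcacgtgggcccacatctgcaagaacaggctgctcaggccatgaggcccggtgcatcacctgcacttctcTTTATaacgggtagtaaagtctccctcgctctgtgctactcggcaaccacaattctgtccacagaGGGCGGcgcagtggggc
ITGA6 second start, chr2:172427336-172427635, plus strand: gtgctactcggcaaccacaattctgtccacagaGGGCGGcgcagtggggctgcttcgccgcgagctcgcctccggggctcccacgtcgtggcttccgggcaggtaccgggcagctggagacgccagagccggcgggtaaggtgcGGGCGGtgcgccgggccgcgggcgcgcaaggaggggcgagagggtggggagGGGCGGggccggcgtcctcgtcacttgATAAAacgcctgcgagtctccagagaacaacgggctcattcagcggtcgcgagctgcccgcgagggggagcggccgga
The ITGB1 promoter was 78.3% G and C with 39 CpG dinucleotides and 3 GC boxes, against a median of 62.3% and 21 CpG over 22132 promoters. The ITGB5 outer start had 49.7% G and C and 11 CpG, and the innermost start 75.7% and 32. The middle start, not printed, lies under the same H3K4me3 peak as the innermost and had 59.7% and 27. The first ITGA6 start had 53.0% and 11 CpG, and the second 72.0% and 38. ITGA5 was the one member whose listed promoters held an AP-1 match, which 6.15% of all promoters held. A GC box was present in 56.3%, TTTAT in 28.6%, CCAAT in 34.6% and GGAAGGAA in 3.68% of all promoters. The ITGAV promoter printed here held none of these letter strings.

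All 10 integrin genes carried H3K4me3 at their start in all 4 libraries, where 62.5% of all protein-coding genes did. No member was called in A673 only (1.86% of all genes) or in CHLA10 only (2.0%). The members differed in the size of this peak more than in its presence, and ITGB1, the common beta chain, had the widest.

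**Figure D1:**
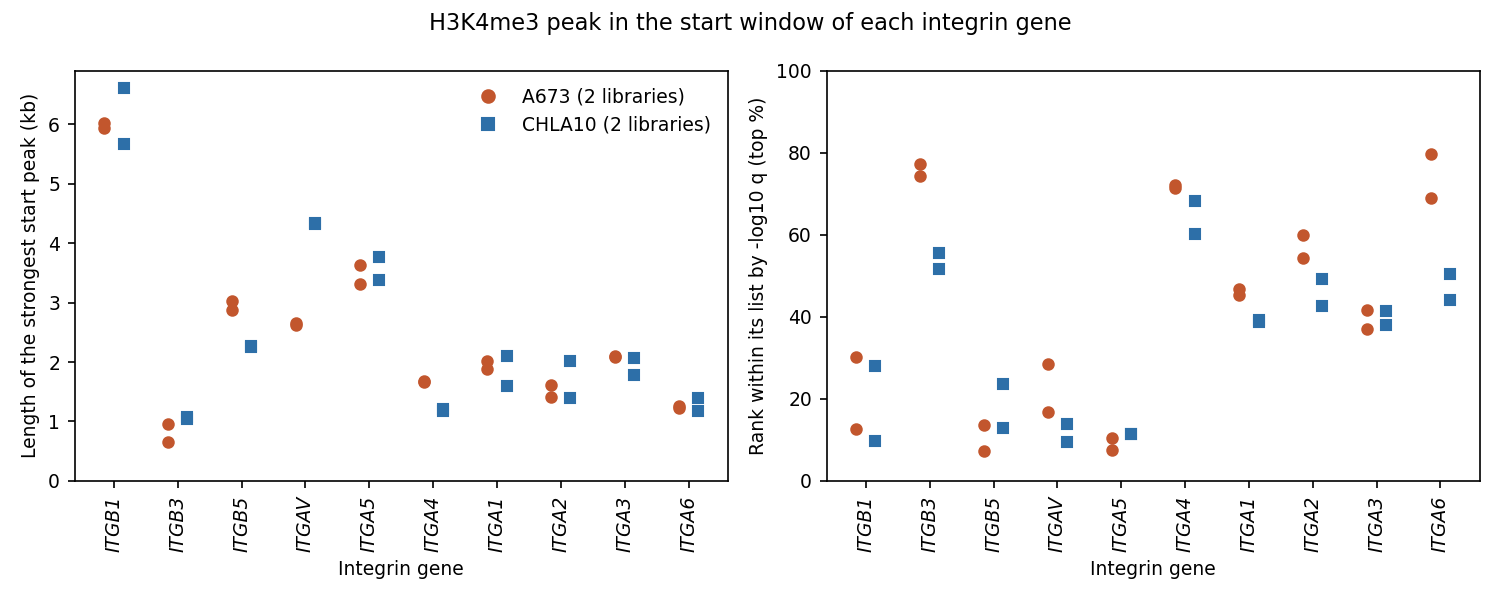
H3K4me3 peak with the highest −log10 q in the start window of each integrin gene, with the peak's length in kb on the left axis and its rank within its own list on the right (a low percentage is a strong peak). Points are single libraries, 2 for A673 (circles) and 2 for CHLA10 (squares). ITGB1 peaks spanned 5661 to 6608 bp, and ITGAV peaks were longer in both CHLA10 libraries than in both A673 libraries.

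The ITGB1 start peak was 5941 and 6029 bp long in A673 and 5661 and 6608 bp in CHLA10. It was among the longest 1.65% and 1.28% of H3K4me3 peaks in A673 and the longest 1.53% and 0.803% in CHLA10. The lengths of the lines overlapped.

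The ITGAV start peak was 2620 and 2651 bp long in A673 and 4320 and 4343 bp in CHLA10. Both A673 peaks were shorter than both CHLA10 peaks, although the median H3K4me3 peak was 1945 and 1809 bp long in A673 and 1487 and 1537 bp in CHLA10. By length the ITGAV peak ranked in the top 30.8% and 26.8% in A673 and in the top 4.64% and 5.03% in CHLA10.

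ITGB5, whose product pairs with ITGAV to bind vitronectin, had separate H3K4me3 peaks at its outer and inner starts in all 4 libraries. At the inner starts, about 14.6 kb into the gene, −log10 q was 259 and 185 in A673 and 98.2 and 64.8 in CHLA10. At the outer start it was 24.0 and 26.8 in A673 and 17.1 and 23.8 in CHLA10. In every library the inner peak was thus the stronger, and it lay over both promoters richer in CpG.

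The start peak of ITGA5, the fibronectin receptor alpha chain, ranked in the top 10.4% and 7.64% of the lists in A673 and the top 11.5% of both lists in CHLA10. ITGB3, ITGA4 and ITGA6 had the weakest start peaks in both A673 libraries and in CHLA10 replicate 1, and in CHLA10 replicate 2 ITGA2 was weaker than ITGA6 (−log10 q 29.0 and 35.7). ITGB3 ranked at 74.2% and 77.2% from the top in A673 and at 51.6% and 55.5% in CHLA10. ITGA4, which binds VCAM1 and fibronectin, ranked at 72.2% and 71.3% in A673 and at 60.1% and 68.1% in CHLA10. ITGA6 ranked at 79.6% and 69.0% in A673 and at 50.5% and 44.1% in CHLA10.

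The collagen receptor genes ITGA1 and ITGA2 are neighbours on chromosome 5, and ITGA3 codes for a laminin receptor chain. Their start peaks lay in the middle of the lists, between the top 37.1% and 60.0% in A673 and between the top 38.0% and 49.1% in CHLA10. The start of ITGA1 is also the annotated start of PELO, a ribosome rescue gene inside it, so this peak cannot be assigned to either gene. A second H3K4me3 region of 5591 bp lay 13.5 kb into ITGA1, at the end of PELO, in all 4 libraries, with −log10 q of 193 and 135 in A673 and 116 and 89.0 in CHLA10. It was stronger than the peak at the ITGA1 start in each library.

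The members held 23 merged H3K4me3 regions in their gene windows. None was in A673 only (4.09% of regions in all genes), and 2 were in CHLA10 only (8.7%, against 7.61%). They lay 108 kb into ITGA1, with −log10 q of 8.59 and 7.66, and 11.8 kb into ITGA6, with 2.42 and 4.52.

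**Figure D2:**
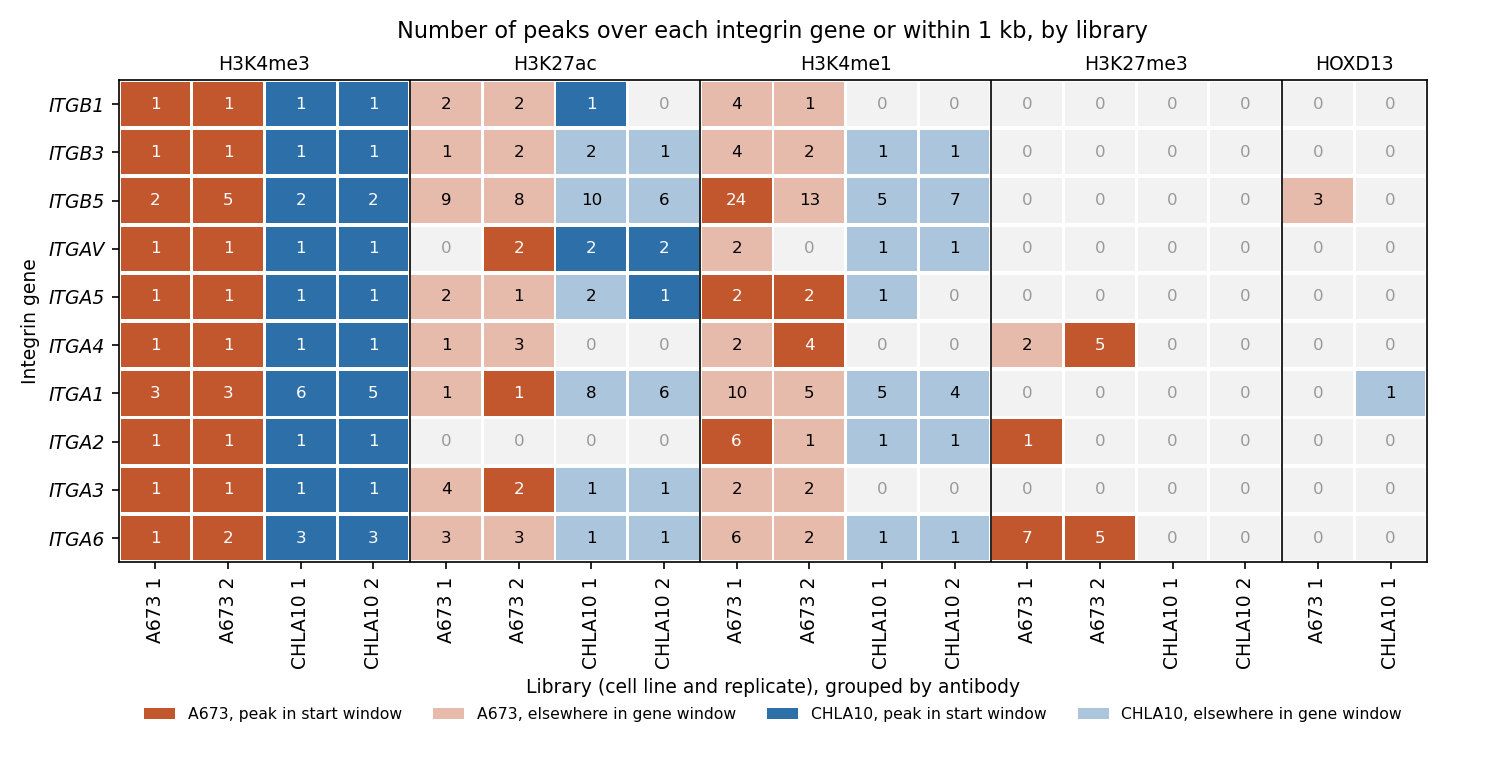
Number of peaks in the gene window of each of the 10 integrin genes (rows) in each of the 18 lists (columns, grouped by antibody). Dark cells have a peak in the start window, light cells have peaks elsewhere in the gene window only, and grey cells have none; A673 is orange and CHLA10 blue. H3K4me3 is filled for every gene, H3K27ac is mostly away from the starts, and H3K27me3 is filled for ITGA4, ITGA2 and ITGA6 in A673 libraries alone.

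H3K27ac was scarce at integrin starts. No member was called in A673 only (1.57% of all genes) or in CHLA10 only (8.94%), and ITGB3, ITGB5, ITGA4, ITGA2 and ITGA6 had no start H3K27ac in any of the 4 libraries, as was the case for 57.0% of all genes. Over all genes too, start H3K27ac in both libraries was infrequent, at 6.25% in A673 and 17.4% in CHLA10.

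ITGAV came nearest to a difference between the lines. Its main start had no H3K27ac in either A673 library. In both CHLA10 libraries it had, with −log10 q of 22.0 and 13.2 and ranks in the top 3.33% and 14.6%. A second region 1.11 kb into the gene was also in CHLA10 only, with −log10 q of 8.01 and 2.55. The gene was not called because A673 replicate 2 had a 188 bp peak, with a −log10 q of 2.55, within 1 kb of the downstream alternative start. ITGB1 had a start peak in CHLA10 replicate 1 (−log10 q 14.3) and ITGA5 in CHLA10 replicate 2 (9.11). The ITGA1 start had one in A673 replicate 2 (5.41), and the upper end of ITGA3 had one in the same library (5.41), away from the H3K4me3 peak at its other end.

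Over the whole gene, H3K27ac was present in all 4 libraries for 6 members, ITGB3, ITGB5, ITGA5, ITGA1, ITGA3 and ITGA6 (22.6% of all genes). The members are longer than most genes, with a median of 80.4 kb against 24.2 kb, and a longer window holds more peaks by its length alone. ITGA4 was called in A673 only in the gene window (8.66%), with 1 and 3 small peaks. None of these peaks overlapped between the A673 libraries. ITGA2 had no H3K27ac in any library (25.2%).

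Counted as merged regions, which do not depend on gene length in this way, the 10 members held 58 H3K27ac regions in their gene windows. Of these 3 were in A673 only (5.17%, against 4.61% of regions in all genes), 12 in CHLA10 only (20.7%, against 8.59%) and 2 in all 4 libraries (3.45%, against 3.08%). ITGA1 alone held 6 of the 12 CHLA10 regions, ITGB5 held 3, ITGAV 2 and ITGB3 1. Of the 3 A673 regions, 2 were in ITGB5 and 1 was 6.04 kb into ITGA6 (−log10 q 4.97 and 3.43).

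ITGA1 was the clearest case. Its gene window had 262 and 198 bp of H3K27ac in A673 and 9339 and 7490 bp in CHLA10. The 6 CHLA10 regions lay 12.0, 56.7, 58.9, 76.3, 108 and 109 kb into the gene. At 76.3 kb the −log10 q was 20.6 and 12.2, and CHLA10 H3K4me1 was present in both libraries. At 108 kb it was 15.5 and 17.1, and CHLA10 H3K4me3 was present in both libraries. The region at 12.0 kb is within the broad H3K4me3 region shared by both lines at the end of PELO.

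ITGB5 was acetylated in both lines at partly different places. Its gene window had 9597 and 9321 bp of H3K27ac in A673 and 7837 and 5657 bp in CHLA10. A 3054 bp region 22.3 kb into the gene was in A673 only, with −log10 q of 38.7 and 13.1, and another 115 kb in had 6.59 and 7.62. Regions 129, 121 and 88.8 kb into the gene were in CHLA10 only, with −log10 q between 5.3 and 14.8. A region 17.8 kb in was in all 4 libraries. ITGA3 had 1 region in all 4 libraries, 8.98 kb from its lower end, with −log10 q of 29.9 and 27.5 in A673 and 16.2 and 11.1 in CHLA10.

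**Figure D3:**
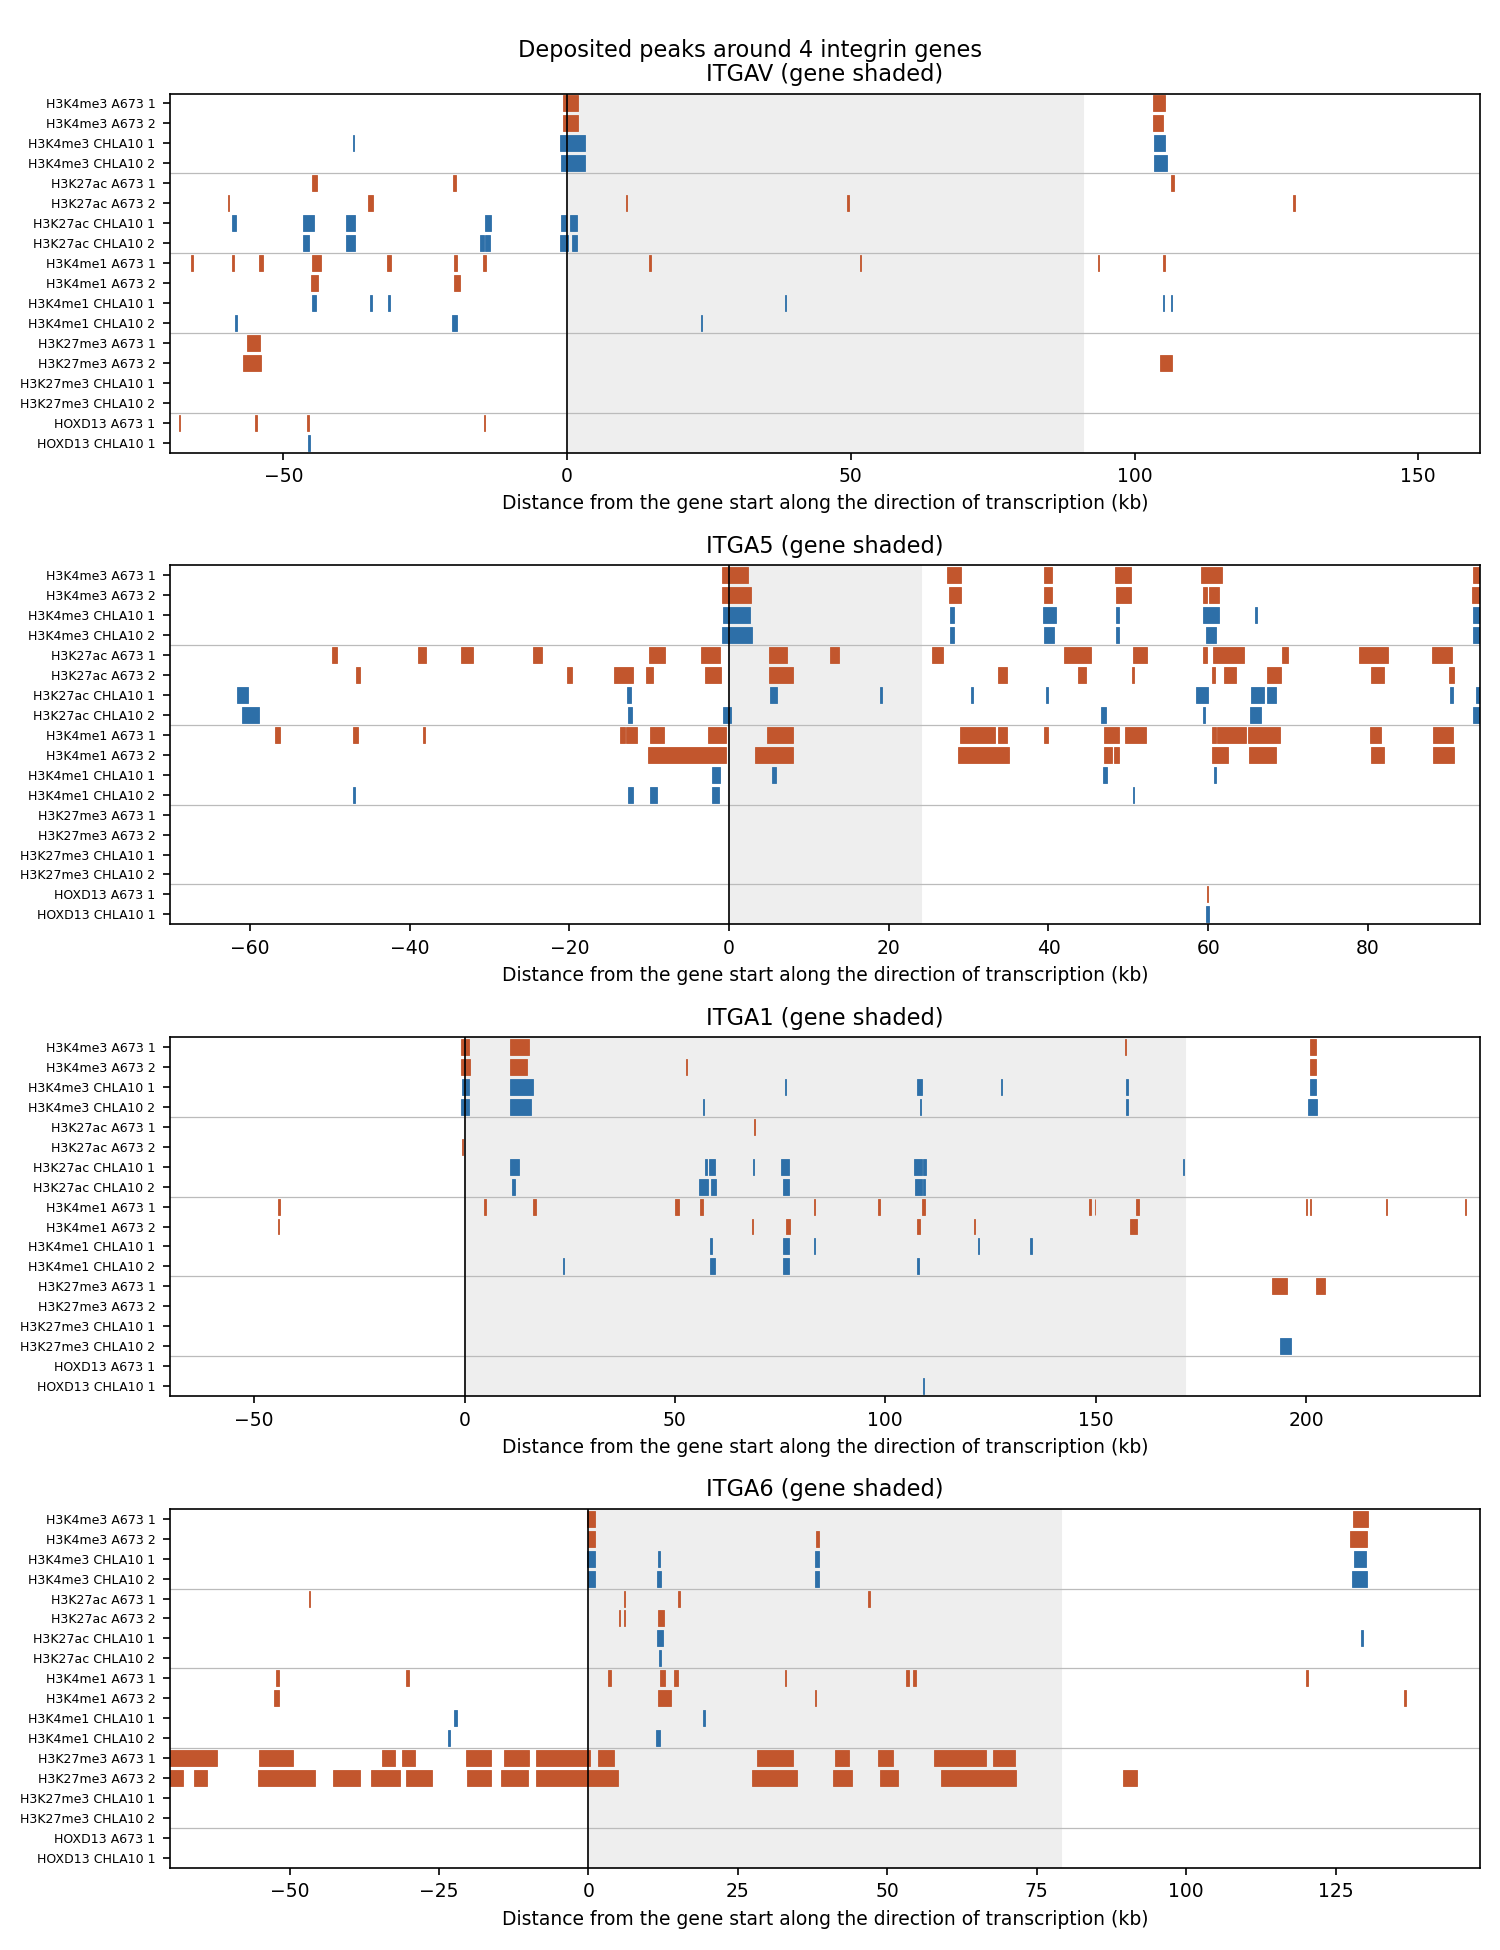
Deposited peaks around ITGAV, ITGA5, ITGA1 and ITGA6 by distance in kb from the gene start along transcription, 1 line per library, with the gene shaded; A673 is orange and CHLA10 blue. H3K27ac within ITGA1 is mostly blue, and at the main ITGAV start it is blue. H3K27ac next to the ITGA5 start is mostly orange, and the H3K27me3 around ITGA6 is orange alone.

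Within 100 kb of a member, outside its own gene window and away from every protein-coding start, lay 108 distal H3K27ac regions, some of them inside other genes. In A673 only there were 10 (9.26%, against a background of 5.02%), in CHLA10 only 8 (7.41%, against 6.89%) and in all 4 libraries 4 (3.7%, against 2.59%). The A673 count rests on both A673 H3K27ac libraries: it was 32 when A673 replicate 1 was left out and 41 when A673 replicate 2 was left out. The CHLA10 count was 20 without CHLA10 replicate 1 and 22 without CHLA10 replicate 2.

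ITGA5 held 6 of the 10 A673 regions, ITGA3 held 3 and ITGB1 1. At ITGA5 the region 1.03 kb upstream had −log10 q of 21.3 and 30.8, and the one 8.07 kb upstream had 25.5 and 24.3. Both had A673 H3K4me1 in both libraries. CHLA10 H3K4me1 was present there too, in 2 libraries at the first region and in 1 at the second. A region 36.5 kb downstream reached 26.8 and 30.4, and it overlapped H3K4me3 in both libraries of each line. Within the gene window ITGA5 had 3278 and 3072 bp of H3K27ac in A673 and 1083 and 1005 bp in CHLA10, so both A673 libraries were above both CHLA10 libraries. ITGA5 shares this 100 kb with 6 other protein-coding genes, among them NFE2 and NCKAP1L, and a region could belong to any of them. The 3 ITGA3 regions, 32.3 to 71.6 kb past its upper end, likewise share their neighbourhood with 7 genes, COL1A1 among them.

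Of the 8 CHLA10 regions, ITGAV and ITGA5 each had 2, ITGB1 and ITGB3 each had 1, and the 2 assigned to ITGA2 lie inside ITGA1 and are the regions at 108 and 109 kb given above. At ITGAV they lay 37.4 kb upstream (−log10 q 9.21 and 8.61) and 13.5 kb upstream (4.91 and 3.3). At ITGA5 one lay 58.8 kb upstream (20.6 and 12.3). The 4 regions in all libraries were near ITGB1 and ITGB5, the nearest of them 3.33 kb upstream of ITGB1.

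**Figure D4:**
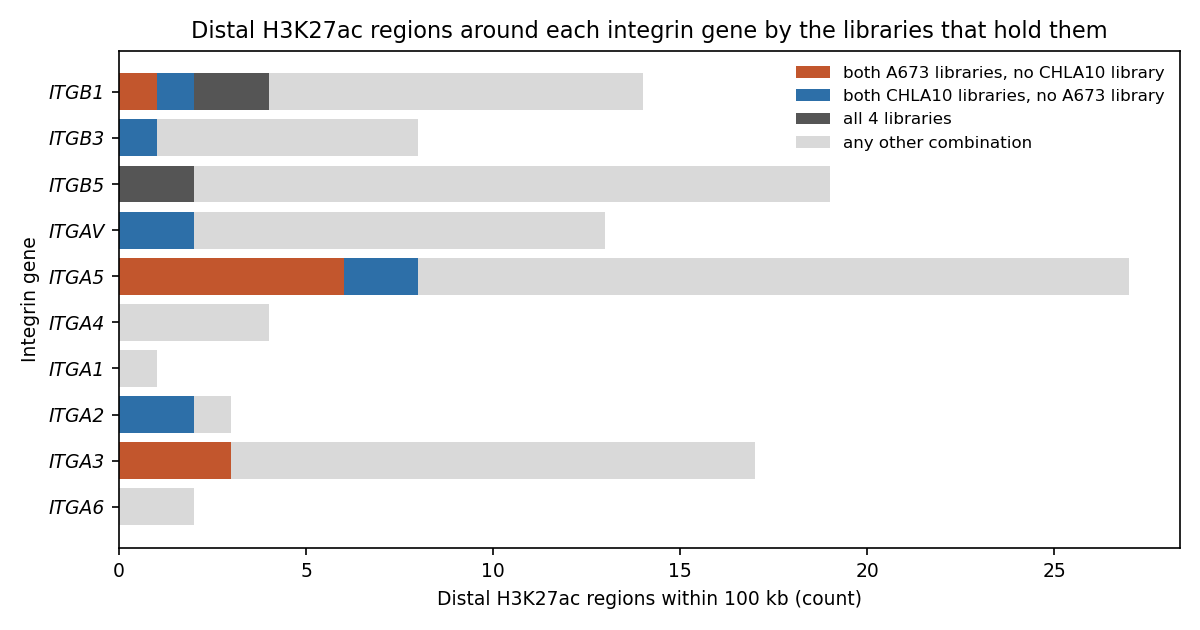
Number of distal H3K27ac regions within 100 kb of each integrin gene, split by the libraries that hold them: both A673 libraries and no CHLA10 library (orange), both CHLA10 libraries and no A673 library (blue), all 4 (dark grey) or any other combination (light grey). ITGA5 has 6 of the 10 regions found in A673 only, and most regions fall in the light grey class.

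H3K4me1 covered more of the gene window in both A673 libraries than in both CHLA10 libraries at 8 of the 10 members. This rule was met by 38.4% of all genes, and the lines overlapped at ITGAV and ITGA2. Genes without H3K4me1 in any library, 28.7% of all genes and no member, cannot meet it. All genes have a median length of 24.2 kb, against 80.4 kb for the members, so the gene-window shares here compare unlike lengths. In A673 only, 3 members were called over the gene window, ITGB1, ITGA4 and ITGA3 (16.3% of all genes), and none in CHLA10 only (0.411%). All 4 libraries held H3K4me1 at 5 members, ITGB3, ITGB5, ITGA1, ITGA2 and ITGA6 (15.3%). Of these, ITGB5 alone had merged regions that all 4 libraries shared, 2 of them. At ITGB3, ITGA1, ITGA2 and ITGA6 no single merged region was in all 4 libraries. At the start, ITGA5 alone was called in A673 only (6.16%). Its A673 start peaks belong to a merged region, centred 5.27 kb upstream, that all 4 libraries held. In CHLA10 this region had −log10 q of 8.83 and 12.5, from peaks outside the start window. H3K4me1 covered 3.67% and 2.6% of all gene windows in A673 and 0.404% and 0.482% in CHLA10, and the part of this gap in the calls was not tested.

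ITGB5 had the most H3K4me1, with 36069 and 31875 bp in A673 and 2359 and 4512 bp in CHLA10. That was 25.5% and 22.5% of its window in A673 and 1.67% and 3.19% in CHLA10. ITGA3 had 3593 and 7707 bp in A673 and none in CHLA10, and ITGB1 had 4538 and 2187 bp in A673 and none in CHLA10. ITGAV had little in either line, 557 and 0 bp in A673 and 208 and 227 bp in CHLA10. Of the 81 merged regions over the members, the single CHLA10-only region lay 58.9 kb into ITGA1 under the H3K27ac region named above, with −log10 q of 5.99 and 7.57.

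H3K27me3 was found in no library for 7 members, a share close to the 72.2% of all genes: ITGB1, ITGB3, ITGB5, ITGAV, ITGA5, ITGA1 and ITGA3. In A673 only, 2 members were called, ITGA4 and ITGA6 (5.1%), and none in CHLA10 only (3.61%), while the lists held 28060 and 31993 peaks in A673 and 41742 and 44644 in CHLA10.

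ITGA6, which codes for the laminin receptor chain of hemidesmosomes and of many stem cells, was the member most covered. H3K27me3 spanned 27151 and 32039 bp of its window in A673, or 33.5% and 39.5%, and no base in either CHLA10 library. Its 5 merged regions were all in A673 only, as 13.4% of regions over all genes were. The merged region over the start was 13590 bp long, with −log10 q of 5.03 and 4.42. In replicate 2 it was 1 peak across both promoters shown above, and it ranked in the top 7.47% of its list. In replicate 1 a peak of 8933 bp, in the top 6.05%, covered the first promoter and ended within the second, and a further peak began downstream of the H3K4me3 peak. In the start window ITGA6 alone was called for H3K27me3 in A673 only (3.57% of all genes). A673 held H3K4me3 and H3K27me3 in this window in both libraries, as 5.67% of all genes did. CHLA10 held H3K4me3 without H3K27me3 there, and 2.02% of all genes had this combination of the lines.

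ITGA4 had 7068 and 24248 bp of H3K27me3 in A673 and none in CHLA10. A 9565 bp region over its start had a −log10 q of 2.56 and 3.02, near the limit of the lists. In replicate 2 it ran across the start, and in replicate 1 its peak lay over 1 kb upstream of the gene. ITGA4 overlaps CERKL, and whether these peaks lie in the stretch that the genes share was not examined. None of the H3K27me3 regions in the ITGA4 window lay within 1 kb of a CERKL start. ITGA2 had 1 start peak in A673 replicate 1 and none in the other libraries.

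HOXD13 peaks lay within 100 kb of 5 members in A673, ITGB1, ITGB5, ITGAV, ITGA5 and ITGA6 (38.8% of all genes). In CHLA10 they lay within 100 kb of 5 members, ITGB1, ITGAV, ITGA5, ITGA1 and ITGA2 (11.6%), where a single peak serves ITGA1 and ITGA2. With the upper 50% of each list the counts were 3 in A673 and 2 in CHLA10, and with peaks nearest to the member alone the CHLA10 count was 2. ITGB1, ITGAV and ITGA5 had one in both lines (8.15%). Inside the gene window HOXD13 was at ITGB5 in A673 (12.2%) and at ITGA1 in CHLA10 (3.8%). With 1 library per line these values have no replicate. The stretch searched is wider for longer genes, and the shares of all genes were not matched for length.

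**Figure D5:**
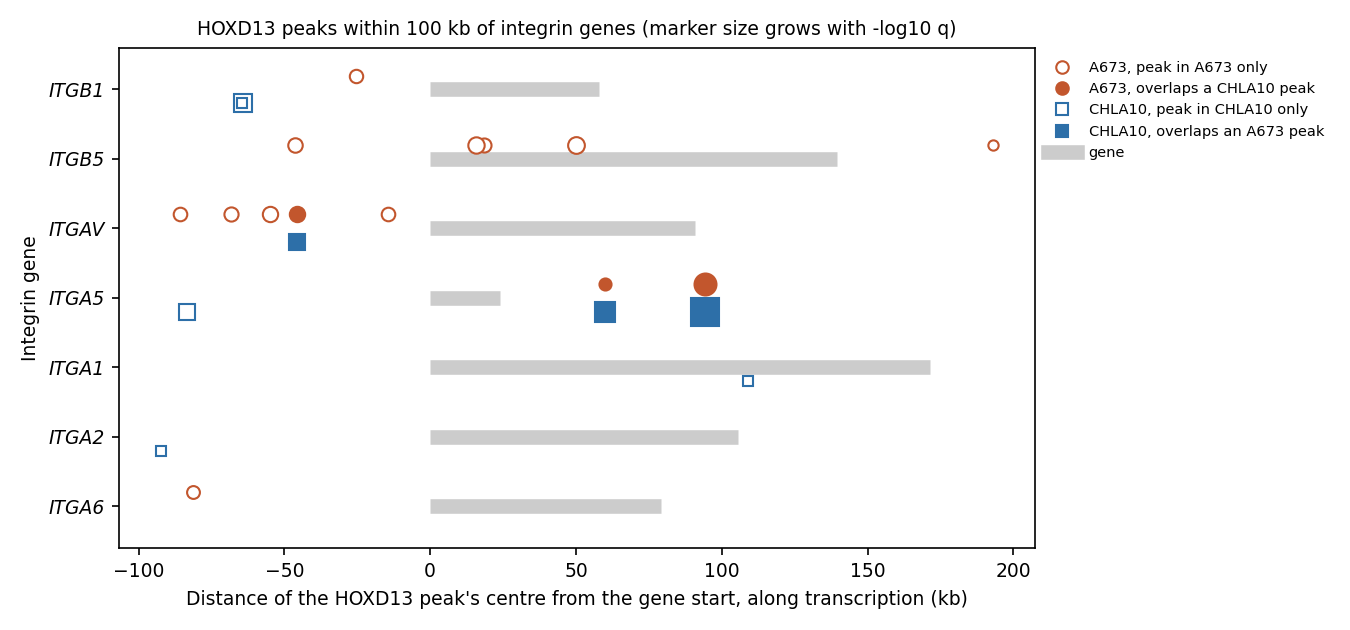
HOXD13 peaks within 100 kb of an integrin gene by the distance in kb of the peak's centre from the gene start along transcription, with the gene as a grey bar; larger markers have a higher −log10 q. A673 peaks are orange circles, CHLA10 peaks blue squares, and filled markers overlap a peak of the other line. The filled markers are at ITGAV and downstream of ITGA5.

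Of 14 A673 peaks near members, 3 overlapped a CHLA10 peak, and 7.22% of all A673 HOXD13 peaks did. Of 7 CHLA10 peaks, 3 overlapped an A673 peak, and 24.0% of all CHLA10 HOXD13 peaks did. One shared site lay 45.4 kb upstream of ITGAV in the A673 list, with −log10 q of 22.4 in A673 and 23.4 in CHLA10, where CHLA10 had H3K27ac in each library. No A673 H3K27ac peak overlapped the HOXD13 peak, but A673 replicate 1 had one (4.61) beside it in the same merged H3K27ac region. The other 2 lay downstream of ITGA5. The stronger, in the top 1.54% of the A673 list and the top 1.14% of the CHLA10 list, is at the start of COPZ1, a coatomer gene, 70.1 kb from ITGA5, and the second is inside GPR84.

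ITGB5 had 5 A673 HOXD13 peaks and no CHLA10 peak within 100 kb. The peak 53.9 kb downstream was inside KALRN, and the peak 46.1 kb upstream was nearest to MUC13. The peaks inside ITGB5 lay 50.0 kb from the start (−log10 q 29.7), 18.4 kb (16.4) and 15.8 kb (27.6). The peak at 15.8 kb was within the strong inner H3K4me3 region in A673, and the one at 18.4 kb in the H3K27ac region that all 4 libraries held. The peak at 50.0 kb had A673 H3K4me1 in both libraries and no H3K27ac.

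ITGB1 had HOXD13 upstream in both lines at different sites, all within the long noncoding gene ITGB1-DT. In A673 the peak was 25.3 kb upstream (−log10 q 13.8), with A673 H3K27ac and H3K4me1 in both libraries and CHLA10 H3K27ac in 1. In CHLA10 the peaks were 63.9 and 64.5 kb upstream (33.6 and 4.18), with CHLA10 H3K27ac and H3K4me3 in both libraries, and A673 had neither mark there.

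ITGAV had 5 A673 peaks upstream, 14.5 to 85.7 kb away, and the one CHLA10 peak already described. ITGAV was the nearest protein-coding gene only for the A673 peak 14.5 kb away. The other A673 peaks and the CHLA10 peak were nearest to ZC3H15 or LOC124907920. The A673 peak 54.7 kb upstream lay in A673 H3K27me3 of both libraries. The ITGA1 peak in CHLA10, 109 kb into the gene with a −log10 q of 6.01, lay in one of the CHLA10 H3K27ac regions and is also the ITGA2 peak, 92.3 kb upstream of that gene. The ITGA6 peak in A673 was 81.1 kb upstream (11.7) and lay in A673 H3K27me3 of both libraries. Of the 14 A673 peaks near members, 3 overlapped A673 H3K27ac in at least 1 library, as did 23.7% of all A673 HOXD13 peaks, and 4 overlapped A673 H3K4me1, against 46.9%. Of the 7 CHLA10 peaks, 6 overlapped CHLA10 H3K27ac, against 58.4% of all CHLA10 HOXD13 peaks, and none overlapped CHLA10 H3K4me1, against 13.2%.

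The wider adhesion machinery was read by the same rules. Start H3K4me3 was in all 4 libraries for 4 of 16 other integrin genes, for 20 of 25 genes of the adhesion complex that joins integrins to actin and for 14 of 21 ligand genes, which is 25.0%, 80.0% and 66.7%, against 62.5% of all genes. In A673 only (1.86% of all genes) it was at ITGA8, at ITGB2, the leukocyte beta chain, and at the kindlin gene FERMT3. In CHLA10 only (2.0%) it was at TNS3 and FLNA, which code for tensin 3 and filamin A, and at the laminin chain gene LAMA1.

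Start H3K27ac was in A673 only (1.57% of all genes) for ITGB2, PXN (paxillin) and TNS1 (tensin 1). It was in CHLA10 only (8.94%) for TLN1 (talin 1), VCL (vinculin), FERMT2 (kindlin 2), the collagen gene COL1A2 and CCN1. Over the gene, H3K27ac was in A673 only (8.66%) for ITGA8, ITGA9, ITGB4 and LAMA5, and in CHLA10 only (4.81%) for LAMA1, THBS1, VCAM1 and CCN1.

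H3K27me3 over the gene was in A673 only (5.1% of all genes) for 2 of the 16 other integrins, ITGB6 and ITGB8, for TNS3 of the adhesion list and for the ligands LAMA4 and THBS1. No gene of the 3 lists was called over the gene in CHLA10 only (3.61%). In the start window THBS1 was called in A673 only (3.57%) and ITGAM in CHLA10 only (2.52%).

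H3K4me1 over the gene was in A673 only (16.3% of all genes) for 4 of 16 other integrins, ITGA7, ITGAX, ITGB2 and ITGB4. It was so for 4 of 25 adhesion genes, TLN1, BCAR1, CRK and RSU1, and for 6 of 21 ligand genes, COL1A2, COL4A1, COL4A2, LAMA5, CCN1 and CCN2. LAMA1 alone was called in CHLA10 only (0.411%).

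HOXD13 lay within 100 kb of 8 of the 16 other integrins in A673 and 1 in CHLA10, or 50.0% and 6.25%, against 38.8% and 11.6% of all genes. For the adhesion genes the counts were 15 in A673 and 6 in CHLA10, or 60.0% and 24.0%. For the ligand genes they were 11 in A673 and 5 in CHLA10, or 52.4% and 23.8%. Every listed gene with a CHLA10 peak had an A673 peak within its 100 kb too. Of the 2326 protein-coding genes with a CHLA10 peak within 100 kb, 1628 had an A673 peak as well. An A673 peak lay within 100 kb of 7750 of all 19974 genes. The lists of other integrins, adhesion genes and ligand genes hold 16, 25 and 21 genes. With a peak in A673 and none in CHLA10 there were 7 integrins (ITGA7, ITGA8, ITGA9, ITGA10, ITGB2, ITGB4 and ITGB6), 9 adhesion genes (TLN2, VCL, FERMT2, PARVB, LIMS1, PXN, BCAR1, TNS1 and RSU1) and 6 ligand genes (FN1, COL1A2, LAMC1, SPP1, THBS1 and FBN1).

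Over the 18 lists, the pattern of gene-window peaks was least common for ITGA2, which no other protein-coding gene matched in full. ITGA4 was matched in full by 12 genes and ITGAV by 20. The most common patterns were those of ITGB3, matched by 732 genes, ITGB5, by 463, and ITGA3, by 428. ITGA5 was matched by 321 genes, ITGB1 by 256, ITGA1 by 62 and ITGA6 by 52.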

How the data were processed

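CUT&RUN peak lists of 18 libraries in A673 and CHLA10 were analysed. Per the submitters' processing notes the authors used Bowtie2, MACS2, SEACR 1.2 and bedtools with build hg38, and the roles, settings and filters are not given in the sources used here. Each deposited peak carries a score, a fold enrichment over background as a ratio, and −log10 p and −log10 q; per the peak names in the deposited files, narrow lists were called against IgG and broad lists without a control. The lowest deposited −log10 q was 2.0 to 2.06 in every list.

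Peaks on chromosomes 1 to 22 and X were overlapped (at least 1 bp) with RefSeq windows of GRCh38.p14 in Python 3.11.15 with numpy 2.4.6, pandas 2.3.3 and matplotlib 3.10.9. Starts were listed for 15812 of 19974 genes and 8 of the 10 members. The counting code was checked on lists with planted peaks. No significance test was made. The labels do not say whether replicates are separate cultures. All 10 members are named. From the lists of other integrins, adhesion complex and ligand genes, those in 1 line were to be named, and genes matching a member's 18-list pattern were to be named where 3 or fewer did. The members and lists were chosen with earlier results of these data known. Alternatives were another window, reach, overlap or distal limit, the upper 50% of each list, lists of equal peak number, nearest peaks, and leaving out each library.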

Additional observations from a re-analysis of the deposited data

How the results depend on the processing

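Of 90 alternative values for 12 counts, 62 stayed within 1.5 times the reported count and 28 did not. Several reported counts were 0, where only another 0 could stay within the limit. Many of the 62 are such repeated 0 values, so 62 of 90 is no measure of stability. In the gene window, H3K27ac was in A673 only for 1 member, ITGA4, against 0 in the start window. H3K27ac was in CHLA10 only for 1 member, ITGAV, with the upper 50% of each list, with lists of equal peak number and with an overlap of at least 200 bp, against 0 as reported. H3K4me3 was in CHLA10 only for 1 member, ITGA2, with the upper 50%. H3K27me3 was in A673 only for 1 member, ITGA6, in the start window and with the upper 50%, against 2. H3K4me1 was in A673 only for 1 member, ITGA5, in the start window, against 3, and in CHLA10 only for 2, ITGA2 and ITGAV, with lists of equal peak number, against 0. With a 50 kb reach, distal H3K27ac regions numbered 6 in A673 only, against 10, and 4 in CHLA10 only, against 8. With distal taken as over 2.5 kb from every gene boundary, which admits regions inside genes, 15 were in CHLA10 only. HOXD13 was near 1 member in A673 in the gene window, and near 3 with the upper 50% and with lists of equal peak number, against 5. In CHLA10 it was near 1 in the gene window, 3 within 50 kb, 2 with the upper 50% and 2 with nearest peaks alone, against 5.

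Leaving out 1 library at a time gave 0 to 2 members with H3K27ac in A673 only, the 2 (ITGA1 and ITGA3) without A673 replicate 1, and 0 to 1 in CHLA10 only, where ITGAV was called without A673 replicate 2, ITGA5 without CHLA10 replicate 1 and ITGB1 without CHLA10 replicate 2. H3K4me1 gave 3 to 4 in A673 only and 0 to 1 in CHLA10 only, the 1 (ITGAV) without A673 replicate 1, and H3K27me3 gave 2 to 3 in A673 only. Distal regions ranged over 11 to 41 in A673 only (32 and 41 without A673 replicate 1 and 2) and over 11 to 22 in CHLA10 only (20 and 22 without CHLA10 replicate 1 and 2); a line with 1 library left has fewer libraries in which a peak is required. No paired analysis was possible because no result comes from a test. The unknown depth, the filter behind the lists and 2 libraries per mark limit every count of presence or absence.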
